A study of Mus musculus with 22 samples.

Results

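Adherens and tight junctions join the outer cells of the mouse embryo at compaction and later seal the trophectoderm, the outer epithelium of the blastocyst. The RNA of 9 genes of these junctions was followed through RNA-seq of normal and H2A.Z-depleted embryos. They were Cdh1, Ctnna1, Ctnnb1, Tjp1, F11r, Cldn4, Cldn6, Cldn7 and Ocln, chosen by symbol from the deposited table, and each symbol occurred there once, which gave 9 of 55335 genes.

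Embryos came from superovulated B6D2F1 females mated with B6D2F1 males and were cultured to the 2-cell stage (43 to 44 h after hCG injection), the morula stage (78 h) or the blastocyst stage (94 h). For H2A.Z knockdown (KD), about 10 pL of siRNA at 20 µM was injected into zygotes. Each of the 22 libraries pooled 15 embryos, with 4 control libraries at every stage and 3 KD libraries of 2-cell embryos, 3 of morulae and 4 of blastocysts. Whether the control embryos of these libraries were injected is not given in the sources used here, so injection and KD cannot be told apart, and a pool shows neither the spread between embryos nor which cells hold a transcript. It is also not stated that the libraries of a group came from separate matings or culture days, so the p-values measure the spread between these libraries, which may be partly technical. The authors report that KD greatly reduced blastocyst formation but left development to the morula unaffected. How embryos were selected for the KD blastocyst libraries is not given in the sources used here. In blastocysts, a difference in developmental progress and an effect on these genes therefore cannot be told apart.

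Values are FPKM, in which both gene length and library total are accounted for, so levels may be compared between genes. Fold changes are differences of log2(FPKM + 1) after scaling between libraries, which understate changes of low genes. They were tested with limma over all genes that reached an FPKM of 1 in 3 or more of the libraries compared, and a gene was called at an adjusted p (Benjamini-Hochberg) under 0.05. FPKM carry no read counts, so no counting interval is given and the spread between libraries is the error throughout. Between 24481 and 29177 genes were above 0 in a library.

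E-cadherin, encoded by Cdh1, binds between neighbouring cells and is tied to actin through β-catenin (Ctnnb1) and α-catenin (Ctnna1), and this complex carries compaction. Tight junctions form above it from claudins, which set the permeability of the seal, together with occludin (Ocln) and the junctional adhesion molecule F11r, all held to the cytoskeleton by scaffolds such as ZO-1 (Tjp1). The seal lets the trophectoderm hold the fluid of the blastocyst cavity.

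H2afz, which encodes H2A.Z, checked the labels. Its FPKM in 2-cell embryos was 1244, 1236, 905 and 1178 in control libraries and 415, 139 and 112 in KD libraries. Among morulae it lay between 1158 and 1511 in control and between 25.7 and 30.3 in KD libraries, and among blastocysts between 1945 and 2656 in control and between 53.2 and 67.2 in KD libraries. All KD libraries were below all control libraries at each stage, and the change was -5.41 in morulae and -5.19 in blastocysts on the log2 scale (limma, adjusted p = 9.71e-08 and 3.63e-08). At the 2-cell stage the change of -2.53 had an adjusted p of 0.543. H2afv, which encodes the closely related H2A.Z.2, was also lower in KD morulae (-2.93, adjusted p = 2.93e-06) and KD blastocysts (-1.86, adjusted p = 7.95e-05) and was not called in 2-cell embryos (-0.23, adjusted p = 0.840).

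The stage labels were checked against fixed markers. The 4 markers of the 2-cell stage summed to a mean FPKM of 187 in control 2-cell embryos, 3.04 in control morulae and 0.526 in control blastocysts. The 7 trophectoderm markers summed to 2.62, 111 and 1190 in the same groups, and Krt18 was the most abundant of them in each. The 7 cumulus cell markers summed to at most 3.69 in any library, and both blood markers were at 0 in every morula library.

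2 blastocyst libraries stood apart for the junction genes. Control replicate 1 was the lowest of its group for 7 of the 9 genes, and KD replicate 5 was the highest of its group for 8 of the 9. Among control blastocysts, replicate 1 also had the largest share of FPKM from mitochondrial genes, 20.0% against 15.2% to 17.1% in the others, and among KD blastocysts replicate 5 had the smallest, 13.0% against 14.6% to 15.3%. Changes of Cdh1, Ctnnb1 and Cldn6 in KD blastocysts are given with and without these libraries. Both were picked for their junction gene values, and for Ctnna1, Ctnnb1, F11r, Cldn4, Cldn7 and Ocln they are the lowest control and the highest KD library, so for these genes a lower KD value without them follows from the choice. Marker results in blastocysts are given with all libraries only, and the part of these libraries in them was not tested. At other stages, KD 2-cell replicate 1 was the lowest of its group for 7 of the 9 genes, with a tie for Cldn4. Control morula replicate 1 was the highest of its group for 6.

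The mitochondrial share also moved with KD. It was 13.3% to 14.6% in control and 15.7% to 18.3% in KD morulae, without overlap, and 15.2% to 20.0% in control and 13.0% to 15.3% in KD blastocysts, where the ranges overlapped slightly and the direction was the opposite. In 2-cell embryos it was 20.7% to 27% in control and 22.8% to 26.9% in KD libraries. The summed FPKM of a library followed the same directions, with 572000 to 599407 in control and 604910 to 616784 in KD morulae and 646290 to 722576 in control and 589520 to 645717 in KD blastocysts. The part of these differences in the changes of the junction genes was not tested.

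**Figure D1:**
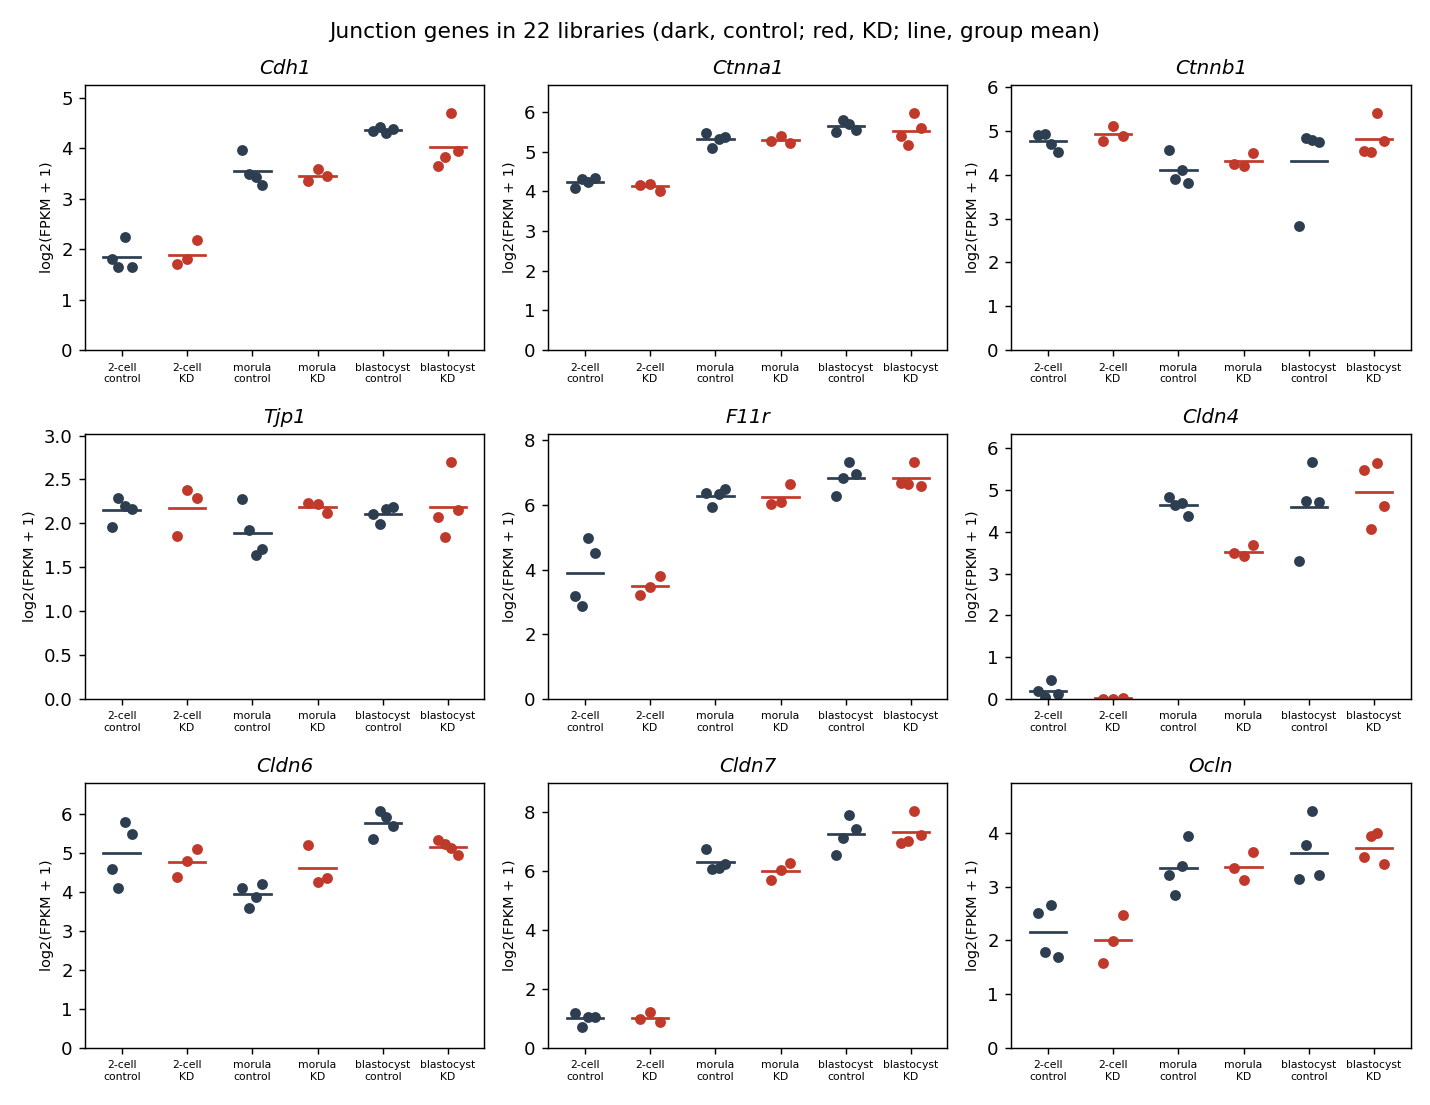
Level of each of the 9 junction genes as log2(FPKM + 1) of the deposited values, with a point for each of the 22 libraries and a line at the group mean (dark, control; red, KD). Cldn4 was near 0 in 2-cell embryos and lower in all 3 KD morula libraries than in the 4 control morula libraries, and Ctnnb1 had a control blastocyst library far below its group.

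Normal development was described first from the control embryos. From the 2-cell stage to the morula, 6 of the 9 genes rose, 2 fell and Tjp1 was not called, where 43% of the 13655 genes tested rose and 40.3% fell. The median change of the 9 was 1.18 against 0.10 over all genes tested. From the morula to the blastocyst, 3 of 9 rose and 0 fell, against 27.6% and 28.8% of 11849 genes, with a median of 0.24 against -0.02. With so many genes called at both steps, these counts say little about the junction genes in particular.

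Among the adherens junction genes, Cdh1 (ENSMUSG00000000303.12, chr8:106603351-106670246 of GRCm38, plus strand) rose at both steps. Its FPKM in control embryos was 2.48, 2.12, 3.73 and 2.15 for 2-cell embryos, 14.7, 10.2, 9.84 and 8.68 for morulae, and 19.3, 20.5, 18.8 and 19.9 for blastocysts. No library of a stage overlapped those of the next, and the changes were 1.69 (SE 0.171, adjusted p = 1.66e-06) and 0.74 (SE 0.152, adjusted p = 0.00132). Ctnna1 rose by 1.07 to the morula (adjusted p = 2.93e-05), from a mean of 18.0 ± 1.52 (SD, n = 4) to 39.2 ± 4.2 (SD, n = 4), and its step of 0.24 to the blastocyst was not called (adjusted p = 0.164).

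Ctnnb1 (ENSMUSG00000006932.17, chr9:120929216-120960507, plus strand) went the other way at the first step. Its FPKM was 28.9, 29.8, 25.3 and 21.9 in control 2-cell embryos, 22.8, 14.1, 16.3 and 13.0 in control morulae and 6.13, 27.5, 26.9 and 26.1 in control blastocysts. The fall of -0.67 to the morula was called (adjusted p = 0.00494) although the ranges overlapped. The change to the blastocyst was 0.12 (adjusted p = 0.794) with all libraries. It was 0.57 (adjusted p = 0.0120) without control blastocyst replicate 1, whose 6.13 lay far below the other libraries, a direction that this choice fixed. Over 17 other settings the adjusted p ranged from 0.0120 to 0.978.

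Among the tight junction genes, Tjp1 stayed low, between 2.12 and 5.49 in all 22 libraries, and was called at neither step. F11r rose by 2.39 to the morula (SE 0.368, adjusted p = 6.40e-05). In control 2-cell embryos its FPKM was 8.17 and 6.35 in replicates 1 and 2 but 30.4 and 22.1 in replicates 4 and 5, so the spread within that group was wide, and all were below the 60.4 to 90.0 of control morulae. Its step of 0.47 to the blastocyst missed the threshold (adjusted p = 0.0591), and was 0.62 (adjusted p = 0.0133) without control blastocyst replicate 1, 0.57 (adjusted p = 0.0365) without control morula replicate 8 and 0.56 (adjusted p = 0.0430) without scaling. It was called in 4 of 17 other settings, and the adjusted p ranged from 0.0133 to 0.180. The remaining call was that without control blastocyst replicate 1 and KD blastocyst replicate 5, which leaves the same control libraries as the first. Control blastocyst replicate 1 held the lowest F11r of its group, so a larger rise without it follows from the choice. Ocln rose by 1.18 to the morula (adjusted p = 0.00229) and was not called at the step to the blastocyst (0.21, adjusted p = 0.569).

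The 3 claudins had different courses. Cldn7 (ENSMUSG00000018569.12, chr11:69964779-69967885, plus strand) went from a mean FPKM of 1.01 ± 0.265 (SD, n = 4) to 79.7 ± 19.4 (SD, n = 4) and then 161 ± 62.4 (SD, n = 4), changes of 5.29 (adjusted p = 1.56e-10) and 0.86 (adjusted p = 0.00630). Cldn4 (ENSMUSG00000047501.3, chr5:134945119-134946934, minus strand) was at 0.0246 to 0.362 in control 2-cell embryos and 19.9 to 27.8 in control morulae. It entered the test of this step through the morulae alone, where it is high, and the size of the change depends on the pseudocount (4.42 with 1 and 6.74 with 0.1). It had no further called change (-0.13, adjusted p = 0.770). With all libraries, Cldn6 (ENSMUSG00000023906.3, chr17:23679249-23682446, plus strand) alone of the 9 genes was called in opposite directions at the 2 steps. It was at 23.3 and 16.1 in replicates 1 and 2 and at 55.0 and 44.3 in replicates 4 and 5 of the control 2-cell embryos, and this wide range overlapped the 11 to 17.6 of control morulae. The fall of -1.06 (SE 0.301, adjusted p = 0.00589) was called in each of 17 other settings but varied in size, from -1.37 to -0.67, and was followed by a rise of 1.73 to the blastocyst (SE 0.181, adjusted p = 9.40e-06).

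The make-up of the claudin transcripts changed with stage. The table holds 23 numbered claudins, of which 6 reached an FPKM of 1 in at least 3 libraries. Cldn6 held 84.8% ± 5.89 (SD, n = 4) of the summed claudin FPKM in control 2-cell embryos, 12.1% ± 2.20 (SD, n = 4) in control morulae and 23.0% ± 5.65 (SD, n = 4) in control blastocysts. Cldn7 held 2.87%, 64.9% and 63.9% on average in the same groups. Claudins are related in sequence, and how the authors' counting split reads that match more than a single gene is not given in the sources used here, so small values of the minor claudins are uncertain.

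**Figure D2:**
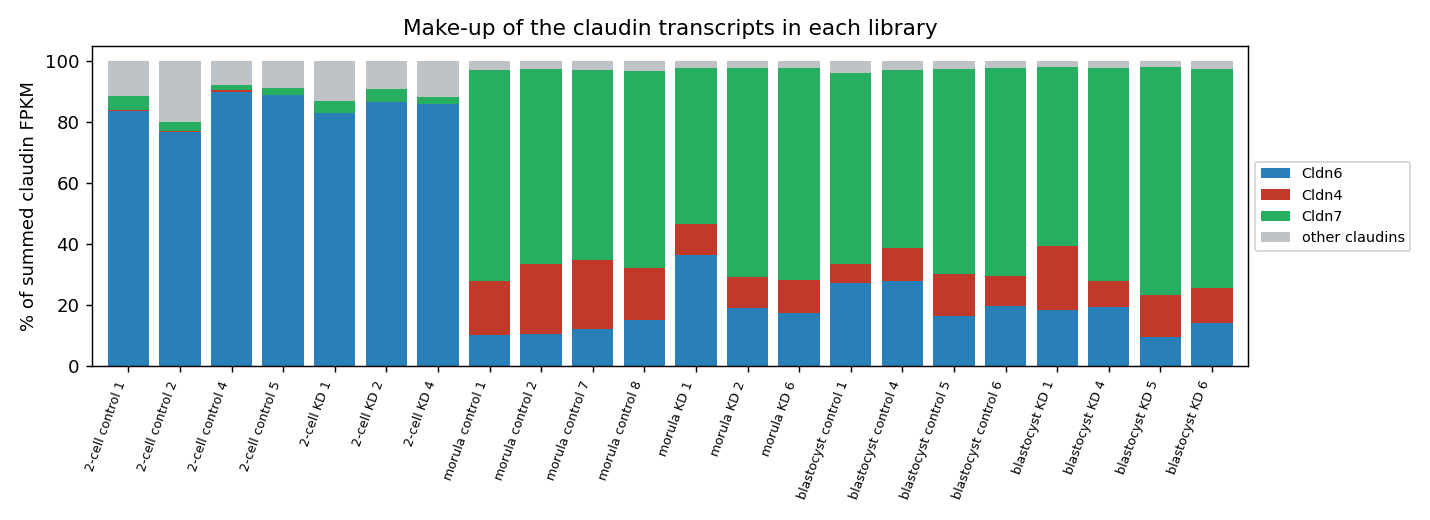
Share of each claudin in the summed FPKM of 23 claudins, as a stacked bar for each of the 22 libraries. Cldn6 was the main claudin in all 2-cell libraries and Cldn7 in all morula and blastocyst libraries, and Cldn4 held 10.2% to 10.6% in KD morulae against 17.1% to 23.1% in control morulae.

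The comparison of KD with control embryos asked whether these genes change when H2A.Z is depleted. At the 2-cell stage limma called 0 of 12160 genes (0% in either direction), with 701 at an unadjusted p under 0.05. The smallest adjusted p was 0.543. Even H2afz, the siRNA target, was not called, although all its KD libraries lay below all control libraries. The absence of calls at this stage therefore does not show that genes were unchanged. Of the 9 junction genes 8 were tested, and their changes lay between -0.34 (F11r, 95% interval -1.28 to 0.61) and 0.23 (Ctnnb1, -0.16 to 0.61). Cldn4 did not reach the minimum FPKM and was not tested. It was listed at 0.132, 0.0246, 0.362 and 0.0872 in control libraries and at 0, 0 and 0.0203 in KD libraries, and no fold is given at this level, although the ranges were apart, as they were for 6.78% of the genes tested.

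In morulae, Cldn4 was lower in KD embryos and the other 8 genes were not called. Its FPKM was 27.8, 24.1, 25.0 and 19.9 in control and 10.2, 9.68 and 11.8 in KD morulae. Every KD library was below every control library, and the change was -1.0 (SE 0.15, 95% interval -1.33 to -0.67, adjusted p = 0.00436). The call held in each of 17 other settings, with a change between -1.14 and -0.95 and an adjusted p between 0.000114 and 0.0260. Thus 1 of 9 genes was lower and 0 were higher, where 9.04% of 10989 genes tested were lower and 4.23% were higher. These shares are not stable, since the 1458 calls behind them became 551 to 1744 with a single library left out and the part of them that was higher fell from 31.9% to 15.3% without scaling, and nothing is read from the count.

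Cldn6 had the opposite sign in morulae without passing the threshold. Its FPKM was 16.3, 11, 13.6 and 17.6 in control and 36.0, 18.2 and 19.6 in KD morulae. The KD libraries were all above the control libraries, by a narrow margin except in KD replicate 1. The change was 0.79 (SE 0.235, 95% interval 0.26 to 1.31, adjusted p = 0.0515), and it was 0.52 (adjusted p = 0.182) without KD replicate 1. It passed the threshold in 4 of 17 other settings, which were a block for the replicate number (1.04, adjusted p = 0.000460), quantile normalization (0.84, adjusted p = 0.0427), a batch term for low and high replicate numbers (0.80, adjusted p = 0.0447) and without control replicate 8 (0.91, adjusted p = 0.0459), and the highest adjusted p was 0.194. Only numbers 1 and 2 occur in both groups, so the value with the block rests on 2 pairs, among them that of KD replicate 1. Cldn4 and Cldn6 made 2 of 9 genes whose KD and control ranges were apart, against 29.6% of all genes tested.

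For the other genes in morulae, changes ranged from -0.18 (Cldn7, 95% interval -0.61 to 0.26) to 0.40 (Tjp1, 0.04 to 0.76, adjusted p = 0.130). Cdh1 changed by 0.03 (-0.33 to 0.39), with 9.20, 10.9 and 9.85 in KD morulae. The KD and control ranges overlapped for these 7 genes. An interval that includes 0 does not show that a gene was the same in both groups.

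In blastocysts, Cldn6 was lower in KD embryos. Its FPKM was 40.3, 66.7, 59.5 and 50.5 in control and 39.1, 36.8, 33.8 and 30.0 in KD blastocysts. The groups did not overlap, but the lowest control library and the highest KD library were close. The change was -0.60 (SE 0.176, 95% interval -0.98 to -0.21, adjusted p = 0.0194), with all 4 KD libraries below the control libraries. The call was lost without control replicate 4 (-0.51, adjusted p = 0.0624), without KD replicate 6 (-0.52, adjusted p = 0.0663) and with no filter on low FPKM (-0.60, adjusted p = 0.0520), and it held in 16 of 19 other settings, among them the fit without control replicate 1 and KD replicate 5 (-0.61, adjusted p = 0.0249). In a bulk sample fewer cells of a type and less RNA per cell cannot be told apart.

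Of the 9 genes 1 was lower and 0 were higher in KD blastocysts, where 19.8% of 11828 genes tested were lower and 16.7% were higher, and 1 of 9 had ranges apart against 34.5% of all genes. The median change of the 9 was 0.08 against 0.00 over all genes tested.

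Cdh1 depended on a single library in blastocysts. Its FPKM was 11.5, 13.2, 24.8 and 14.3 in KD blastocysts, and 3 of these lay below the 18.8 to 20.5 of the control libraries while KD replicate 5 lay above them. The change was -0.34 (SE 0.190, adjusted p = 0.189) with all libraries and -0.50 (adjusted p = 0.0272) without KD replicate 5, whose removal as the highest KD library lowers the change by choice. With control replicate 1 left out as well it was -0.46 (adjusted p = 0.0408), and over 19 other settings the adjusted p ranged from 0.0272 to 0.392.

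Ctnnb1 was 22.5, 22.1, 41.5 and 26.3 in KD blastocysts, and its change of 0.52 (95% interval -0.25 to 1.28, adjusted p = 0.275) was -0.07 (adjusted p = 0.725) without control replicate 1 and KD replicate 5, a shift whose direction the choice of these libraries fixed, with an adjusted p from 0.136 to 0.809 over 19 other settings. Cldn4 was widely spread in both groups, with 8.86, 25.6, 50.0 and 25.2 in control and 44.0, 15.7, 49.5 and 23.7 in KD blastocysts. Its change was 0.36 (-0.54 to 1.26, adjusted p = 0.527) with all libraries. Over 19 other settings it ranged from -0.20 to 0.68 with an adjusted p from 0.194 to 0.966, and its lowest value came without control replicate 1 and KD replicate 5, a direction that the choice of these libraries fixed. The remaining genes changed by -0.10 (Ctnna1) to 0.10 (Ocln), none of them called.

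**Figure D3:**
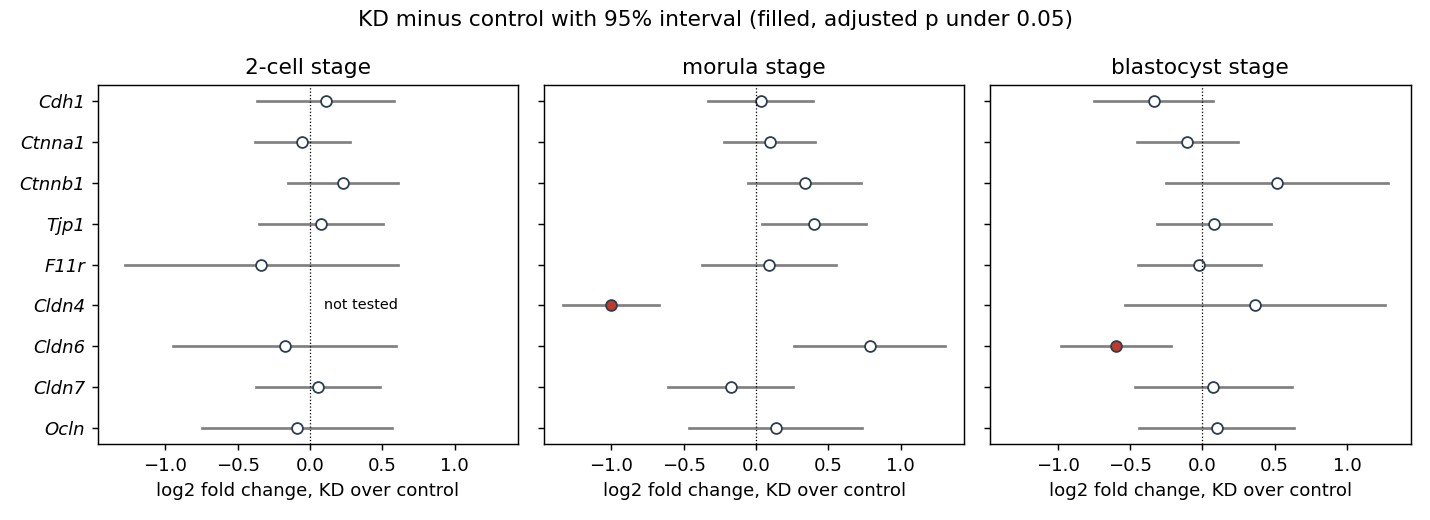
Change of each junction gene between KD and control embryos at the 3 stages, as the log2 fold change of FPKM + 1 with its 95% interval (filled points, adjusted p under 0.05 in limma). The filled points were Cldn4 in morulae at -1.0 and Cldn6 in blastocysts at -0.60.

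A difference of the KD effect between the later stages was tested as an interaction of stage and condition. Cldn6 was called, with an effect lower by -1.42 in blastocysts than in morulae (SE 0.299, 95% interval -2.05 to -0.79, adjusted p = 0.00589), and in each of 26 other settings (-1.68 to -1.15, adjusted p 0.00444 to 0.0287). Thus 1 of 9 genes was lower and 0 were higher, where 6.32% of 12727 genes tested were lower and 5.43% were higher. For Cldn4 the difference was 1.33 (SE 0.519, adjusted p = 0.105), so its call in morulae alone does not show that the stages differ. It was called without control blastocyst replicate 5 (1.66, adjusted p = 0.0271) and without KD blastocyst replicate 4 (1.60, adjusted p = 0.0418), and the adjusted p ranged from 0.0271 to 0.304 over 26 other settings. These comparisons share their KD and control libraries with those within each stage.

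In the order of mean FPKM over the 6 groups, the KD and control groups of a stage were neighbours for Cdh1, Ctnna1, F11r, Cldn7 and Ocln, and their ranges overlapped in each such pair. For these 5 genes the only gaps between neighbours lay between stages, and the 2-cell groups lay at the bottom. For Cldn6 the order was control blastocysts (54.3), KD blastocysts (34.9), control 2-cell embryos (34.7), KD 2-cell embryos (26.7), KD morulae (24.6) and control morulae (14.6), where control blastocysts lay above their neighbour and control morulae below theirs without overlap, and the 4 groups between overlapped in turn. The 16.1 to 55.0 of control 2-cell embryos reached into the ranges of both. For Cldn4, KD and control blastocysts and control morulae overlapped in turn, and KD morulae lay below control morulae without overlap but within the range of control blastocysts, whose lowest library was at 8.86. All neighbours overlapped for Ctnnb1 and Tjp1.

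Cldn4 and Cldn6 each lie beside another claudin. Cldn3 (chr5:134986214-134987472, plus strand) starts 39279 bases beyond Cldn4, and in blastocysts its FPKM was 3.09, 4.11, 6.36 and 2.58 in control and 1.90, 1.94, 2.89 and 2.80 in KD libraries, which overlapped (-0.52, adjusted p = 0.0720). In morulae, the stage at which Cldn4 was called, Cldn3 was at 0.0701 to 0.193 in control and 0 to 0.285 in KD libraries. At this level it cannot be set beside the change of Cldn4. Cldn9 (chr17:23682584-23684026, minus strand) ends 137 bases from the end of Cldn6 on the other strand. It did not exceed 1.33 in any library, against at least 11 for Cldn6, and its change in KD blastocysts was 0.42 (adjusted p = 0.0582), opposite in sign to that of Cldn6. Among morulae Cldn9 was at 0.0926 to 0.789 in control and 0.209 to 0.371 in KD libraries, which overlapped. The library method does not mark strand, so fragments running past either end could not be assigned by strand.

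The sequence upstream of Cldn4 and Cldn6 is shown because these were the members called in KD embryos. Promoters in the RefSeq table (GRCm38.p6) matched 7 of the 9 genes, and Cdh1 and Ctnna1 were not among them. Each sequence is given 5′ to 3′ on the strand of its gene and ends at the base before the first annotated transcript start, and capitals mark matches to the motifs searched. That of Cldn4 is chr5:134946935-134947184 (minus strand) and that of Cldn6 is chr17:23679115-23679248 (plus strand).
Cldn4: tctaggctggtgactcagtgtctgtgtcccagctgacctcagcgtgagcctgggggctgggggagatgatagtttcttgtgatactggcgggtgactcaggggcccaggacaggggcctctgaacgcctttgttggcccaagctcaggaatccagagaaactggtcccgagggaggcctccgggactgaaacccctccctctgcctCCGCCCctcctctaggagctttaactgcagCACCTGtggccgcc
Cldn6: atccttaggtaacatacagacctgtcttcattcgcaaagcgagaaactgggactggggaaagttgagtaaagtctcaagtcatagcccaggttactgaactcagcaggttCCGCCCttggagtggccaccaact

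Motifs were searched on both strands over each whole promoter entry, which runs past the gene start. The GC box CCGCCC is in 35.7% of the 32851 promoters of the table, the E-box CAGGTG in 20.2%, the TFAP2 motif GCCNNNGGC in 16.6%, the TEAD motif CATTCC in 14.7%, TATAAA in 13.6% and the GRHL motif AACCGGTT in 0.146%. Cldn4 and Cldn6 both held the GC box and the E-box, and so did F11r, both entries of Ocln, an entry of Cldn7, and Cldn3, so this pair of motifs does not set the called genes apart. Cldn6 and another entry of Cldn7 held the TEAD motif. A match is a description of these letters and no binding site.

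The genes with the most similar course over the 22 libraries, by Pearson r of log2(FPKM + 1), were Eif2b5 (0.99), Rab1b (0.99) and Aup1 (0.99) for Cldn4, Cat (0.996), Eef1a1 (0.995) and Slc28a3 (0.995) for Cldn7, and Pak2 (0.87), Rtn3 (0.86) and Gm12766 (0.85) for Cldn6. They were Gm4737, Gm9512 and Gm10175 (each 0.98) for Cdh1, Ahcy, Ttll3 and Eef1a1 (each 0.98) for Ctnna1, and Rdx (0.79), Zc3h11a (0.79) and Gm38394 (0.78) for Ctnnb1. For Tjp1 they were Slc16a1 (0.79), Abhd17c (0.76) and Eif4ebp2 (0.75), for F11r Rbmxl1, Scamp3 and Gm7324 (each 0.98), and for Ocln Trap1, Mars and Slc2a1 (each 0.92). Libraries of a stage lie together, so a high r may reflect the steps between stages, which was not tested, and it is a description only.

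Other junction genes were followed as fixed lists, and counts are over the genes tested, since others did not reach the minimum FPKM. At the 2-cell stage none of these lists had a called gene. In KD morulae, where 4.23% of all genes tested were higher and 9.04% lower, 1 of 5 tested adherens junction genes was higher (Afdn, 0.73, adjusted p = 0.0151), 1 of 5 other tight junction membrane genes was lower (Lsr, -1.02, adjusted p = 0.0208) and 1 of 13 polarity genes was lower (Pard6a, -0.78, adjusted p = 0.0262). None was called among 1 other claudin, 4 tight junction scaffold genes, 14 actomyosin genes and 8 epithelial regulators. The median change over all genes tested was 0.02, and the medians of these lists ran from -0.37 for the single other claudin to 0.34 for the scaffold genes.

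In KD blastocysts 16.7% of all genes tested were higher and 19.8% lower. There 4 of 8 tested epithelial regulators, of 16 listed, were higher and 0 were lower, with a median of 0.49 against 0.00 over all genes tested. They were Ovol1 (1.04, adjusted p = 0.00156), Tfap2c (0.96, adjusted p = 0.00674), Ovol2 (0.83, adjusted p = 0.00206) and Klf4 (0.61, adjusted p = 0.0310), all transcription factors. They fell from the morula to the blastocyst in control embryos, as did 6 of the 8 regulators tested at that step. The untested regulators did not all go this way. Tfap2a was at 0.821 to 1.35 in control and 0.105 to 0.275 in KD blastocysts, without overlap. Grhl3, also untested, was at 0.0793 to 0.608 in control and 0.662 to 2.03 in KD blastocysts. The direction of the 4 called genes thus does not hold for the whole list. Of 8 adherens junction genes Nectin4 was higher (0.99, adjusted p = 0.000828), at 0.716 to 1.67 against 0.0120 to 0.299 in control libraries, so it entered the test through the KD group alone. Lima1 (-0.93, adjusted p = 0.0114) and Vcl (-0.51, adjusted p = 0.0449), both linked to actin, were lower in the same list. Without control replicate 1 and KD replicate 5 Lima1 was still called (-0.95, adjusted p = 0.0228) and Vcl was not (-0.51, adjusted p = 0.0841). Nectin4 then no longer reached the minimum FPKM and Klf4 was not called (0.49, adjusted p = 0.0614). Tfap2c was still called, at a smaller change of 0.63 (adjusted p = 0.0207).

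Of 7 other tight junction membrane genes 1 was lower in KD blastocysts, the adhesion molecule Jam2 (-1.29, adjusted p = 0.000423), and of 3 other claudins Cldn12 was lower (-0.55, adjusted p = 0.0312). Of 14 polarity genes Pard6g (0.50, adjusted p = 0.0192) and Crb3 (0.52, adjusted p = 0.0449) were higher, and Pard6g, at 0.554 to 0.812 in control and 1.06 to 1.73 in KD libraries, entered the test through the KD group alone. Of 15 actomyosin genes Cfl1 (0.88, adjusted p = 0.0130) and Rhoa (0.49, adjusted p = 0.0181) were higher and Myl12b (-0.65, adjusted p = 0.00978) was lower. None of 8 scaffold genes was called. Without control replicate 1 and KD replicate 5 the called genes numbered 1 in place of 3 for the adherens junction list. They numbered 3 in place of 1 for the tight junction membrane list and 1 in place of 0 for the scaffold list. The epithelial regulators had 3 in place of 4. The other lists kept their counts, although among the polarity genes Crb3 lost its call (0.44, adjusted p = 0.125) and Prkci gained one (-0.65, adjusted p = 0.0219). All gained calls were lower in KD, a direction that may follow from the choice of these libraries. The share of all genes called in that fit is not given, so nothing is read from these counts.

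In control embryos genes of these lists were also called between stages, as were many genes overall (43% higher and 40.3% lower at the first step, 27.6% and 28.8% at the next). From the 2-cell stage to the morula 12 of 14 actomyosin genes were higher and 1 was lower, with the actins Actg1 (6.60, adjusted p = 2.63e-11) and Actb (5.38, adjusted p = 1.16e-10) rising and the kinase Rock1 (-3.73, adjusted p = 1.26e-09) falling. Of 8 adherens junction genes 1 was higher and 5 were lower, and of 15 polarity genes 6 were higher and 6 lower, the latter list near the share of all genes in both directions. Of the called genes 1 of 13 in the actomyosin list, 3 of 6 in the adherens junction list and 2 of 12 in the polarity list reached an FPKM of 1 in no library of the other stage, and such genes enter the test only where they are high. From the morula to the blastocyst 4 of 6 other tight junction membrane genes were higher and 1 was lower, among them the adhesion molecules Epcam (3.00, adjusted p = 3.32e-08) and Jam2 (2.30, adjusted p = 1.74e-06), and Cldn3 rose by 2.05 (adjusted p = 4.15e-06), having entered the test through the blastocysts alone. Of 8 epithelial regulators 1 was higher and 6 were lower. Of these called genes 1 of 5 in the membrane list and 1 of 7 among the regulators reached an FPKM of 1 in no morula library. For the difference of KD effects, where 5.43% of all genes tested were higher and 6.32% lower, Afdn (-1.67, adjusted p = 0.0199), Jam2 (-1.07, adjusted p = 0.0134) and Epcam (-0.70, adjusted p = 0.0414) were lower in blastocysts than in morulae, and Tfap2c (1.10, adjusted p = 0.0235), Ovol2 (0.73, adjusted p = 0.0298) and Nectin4 (0.68, adjusted p = 0.0491), which passed the filter only through KD blastocysts, were higher.

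Cell type markers were examined beside these results. In blastocysts, where 19.8% of all genes tested were lower and 16.7% higher, 3 of 7 trophectoderm markers were lower and 0 were higher (Gata2 -1.39, Elf5 -1.23, Krt18 -1.02). Gata2 (0.935 to 3.18 in control and 0.0582 to 0.205 in KD libraries) and Elf5 (0.841 to 2.20 and 0.0300 to 0.186) entered the test through the control group alone, where they are high, and without them 1 of 5 was lower, which is near the share of all genes. The summed FPKM of all 7 was 999, 1473, 1305 and 983 in control and 571, 731, 766 and 593 in KD blastocysts, with Krt18 the most abundant and none of the 7 at 0 throughout a group. Inner cell mass markers summed to 113 to 222 in control and 138 to 277 in KD blastocysts, with 0 of 4 tested called and Nanog the most abundant. In morulae 0 of 4 tested trophectoderm markers were called. The sum of all 7 was 93.1 to 131 in control and 69.6 to 104 in KD libraries, while Gata2 was at 0 in all control morulae. Among the tested markers Gata3, not called (-0.57, adjusted p = 0.0658), was at 16.5 to 22.7 in control and 9.88 to 14.3 in KD morulae without overlap. The inner cell mass markers of morulae summed to 127 to 169 in control and 41.7 to 57.8 in KD libraries, with Nanog lower (-2.23, adjusted p = 0.00647) and Klf2 higher (0.71, adjusted p = 0.0278). Of the 2-cell markers Zfp352 was higher in KD blastocysts (1.56, adjusted p = 0.00157), and it too entered the test through the KD group alone. The part of these markers in the changes of Cldn4 and Cldn6 was not tested.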

How the data were processed

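RNA-seq was analysed from the table of the authors, who aligned reads to mm10 with STAR and quantified genes with StringTie 2.1.4 as FPKM. The deposited FPKM are normalized for gene length and library total. DESeq2 1.30.1 and featureCounts 1.6.2 are also named in the submitters' notes, but counts were not used here.

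FPKM were divided by a median-of-ratios factor per library, and log2(FPKM + 1) was compared with limma 3.58.1 (R 4.3.3, lmFit, eBayes with trend) without covariates. Genes that reached an FPKM of 1 in 3 or more libraries were tested, and the steps were tested on simulated data. Named genes were the 9 members, H2afz and H2afv, Cldn3 and Cldn9, markers, the 3 genes most like each member, and called list genes, at most 3 in each direction and list. Klf4 and Prkci are named beyond this, after their values were seen. Members and lists were chosen with earlier results of these data known. Python 3.11.15, numpy 2.4.6, pandas 2.3.3 and matplotlib 3.10.9 served for levels, sequences and figures. Positions are from GENCODE on GRCm38, the assembly of mm10. No pair of libraries was identical.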

Additional observations from a re-analysis of the deposited data

Results flagged for a closer look

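Ctnnb1 was at an FPKM of 6.13 in control blastocyst replicate 1, far below the other control blastocysts, and F11r was at 159 in KD blastocyst replicate 5, far above the other KD blastocysts, though control blastocyst replicate 5 was at 159 as well. In both the gap to the nearest library took most of the range of the group. They were 2 of 36 groups of 4 libraries examined, and chance gives about 1 in 20 such groups. Both replicates 5 were also alike for Cldn4 (50.0 in control and 49.5 in KD) and Cldn7 (240 and 264). Their deviations from the group had an r of 0.35, within the -0.38 to 0.40 of blastocyst libraries of different numbers. Without control replicate 1 and KD replicate 5, the lowest control and the highest KD library for F11r, the change of F11r in KD blastocysts was -0.28 (limma, adjusted p = 0.187) against -0.02 with them (adjusted p = 0.948), and over 19 other settings the adjusted p ranged from 0.187 to 0.993. The direction of this shift follows from the choice of libraries.

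The KD effect on Cldn6 differed between the stages, with a difference of -1.42 (blastocysts minus morulae, limma interaction, adjusted p = 0.00589). The effect within a stage was 0.79 in morulae, where it was not called, and -0.60 in blastocysts, where it was.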

How the results depend on the processing

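Alternatives were other pseudocounts, filters, scalings and eBayes settings, each library left out in turn, a replicate block and a batch of number ranges. 2 were chosen after seeing the data, scaling factors centred on 1 and the joint removal of control blastocyst replicate 1 and KD blastocyst replicate 5. Over 991 single-gene values, 14 uncalled values came to pass the threshold, 3 called values no longer did, none of the called values changed sign, and 54 uncalled values did.

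Fewer genes tested at a mean FPKM of at least 5 gave 750 calls in KD morulae (1458 otherwise), 2508 in KD blastocysts (4321), 5838 from the 2-cell stage to the morula (11374), 3855 from the morula to the blastocyst (6687) and 866 for the difference of KD effects (1495). More genes tested without a filter gave 412 in KD morulae and 988 for the difference. Without scaling 15.3% of the calls in KD morulae were higher against 31.9% with it, the median of all genes moved by -0.10, and that of the difference of KD effects by 0.12.

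2 junction genes were called in KD morulae with quantile normalization, with a replicate block and with the batch, 0 in KD blastocysts without a filter, and 2 there with both libraries removed, which also gave 5 from the morula to the blastocyst. The cause was not tested. The shares of all genes called in these settings are not given, so nothing is read from these counts. With single libraries left out, calls ranged from 0 to 3 in 2-cell embryos, 551 to 1744 in KD morulae, 3461 to 4149 in KD blastocysts and 962 to 1722 for the difference. In KD morulae they fell to 551 and 579 without KD replicates 2 and 1 and to 855 and 910 without control replicates 8 and 7, and for the difference to 962 without KD morula replicate 1. Calls of junction genes then ranged from 1 to 2 in KD morulae and for the difference, 0 to 2 in KD blastocysts and 3 to 5 from the morula to the blastocyst.

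Same-numbered libraries did not deviate together throughout (r from -0.11 to 0.35 in blastocysts, 0.01 to 0.21 in 2-cell embryos, and 0.18 and 0.09 in morulae), so the numbers were not taken as pairs. In morulae low and high numbers did go together, with r from 0.09 to 0.18 among numbers 1 and 2, 0.19 and 0.35 between controls 7 and 8 and KD replicate 6, and -0.28 to -0.09 across. In 2-cell embryos r was -0.02 to 0.21 within and -0.24 to 0.01 across. Deviations from a group offset each other within it, so positive r within number ranges brings negative r across. The values across are therefore no separate evidence of grouping. In blastocysts r between libraries of different numbers was -0.38 to 0.40. The replicate block gave 1624 calls in KD morulae, where Cldn6 changed by 1.04 (adjusted p = 0.000460) on 2 shared numbers, 4571 in KD blastocysts, 0 in 2-cell embryos, 10854 from the 2-cell stage to the morula and 1092 for the difference. No paired analysis was possible from the morula to the blastocyst because these controls share 1 number.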
